A study of Mus musculus with 8 samples.

Results

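The collagen genes were taken as every gene of the deposited table whose symbol reads Col, a number, the letter a and a second number. This gave 44 of the 18901 genes. Skin of the cheek came from 4 TBX20fl/fl;K14-Cre animals (knockout mice) and 4 TBX20fl/fl littermates (control mice), all female and 7 weeks old, from crosses of a C57BL/6N Cre line with a C57BL/6J floxed line. Both groups carried the floxed Tbx20 alleles and both received 10 µg of B-type natriuretic peptide (BNP, a peptide that elicits scratching) in 10 µl by injection into the left cheek. Skin was taken 5 h after a 30 min recording of behaviour, so the comparison is between genotypes under BNP, and skin without BNP was not analysed here. The K14 promoter drives Cre in keratinocytes, where exons 2 to 3 of Tbx20 are removed. The samples were whole skin, in which fibroblasts, muscle, fat and vessels keep an intact Tbx20. Mice carry the replicate number of their label, and each mouse is 1 library.

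Collagens are secreted proteins built of 3 chains wound into a triple helix, in which glycine returns at every Gly-X-Y triplet of residues. Dermal fibroblasts make the fibrillar collagens that give skin its tensile strength, while type IV collagen forms the sheet of basement membranes and type VI collagen forms beaded filaments around cells. Basal keratinocytes, the cells in which this Cre acts, are a main source of type VII collagen, which anchors the basement membrane to the dermis, and of type XVII collagen, a transmembrane protein of hemidesmosomes.

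Total counts were 16056282 to 19880654 per mouse. Tbx20 had 0 to 2 counts in knockout mice and 0 to 3 in control mice, at which depth its deletion could not be read from whole skin. Control mouse 2 stood apart from the other libraries. Its scaling factor (TMM, which corrects for the makeup of a library) was 0.735, against 1.01 to 1.07 in the other 7 mice. Its FPKM (reads per length of transcript and depth of library) was the lowest of the 8 mice for 55.5% of the 15970 genes whose FPKM averaged 0.1 or more. Among the 37 collagen genes at that level it was the lowest for 35. Results are therefore set beside those without that mouse or with a correction for transcript length and GC content. Keratinocyte, fibroblast and fat markers were present in every mouse, and 6 skeletal muscle markers summed to 7218 to 12526 FPKM, so the samples also held muscle. In whole skin, fewer cells of a type and less RNA per cell cannot be told apart.

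The collagen genes spanned a wide range of levels. In mean FPKM over the 8 mice, 16 were at 10 or more, 11 lay from 1 to 10, 10 from 0.1 to 1, and 7 were below 0.1. Those 7 were the cartilage genes Col2a1, Col9a1, Col9a2 and Col10a1 together with Col6a4, Col19a1 and Col25a1. Of 6 cartilage markers, Matn1 and Matn3 were likewise below a mean FPKM of 0.1, while Acan, Cnmd, Hapln1 and Comp were above it, and the 6 summed to 2.19 to 3.51 FPKM in knockout mice and 1.72 to 2.88 in control mice. The 3 dermal fibrillar genes Col1a1, Col1a2 and Col3a1 made up 67.2% to 79.5% of the summed collagen FPKM in each mouse.

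Summed over the 44 genes, collagen FPKM was 1659, 2051, 3898 and 2328 in knockout mice 1 to 4 and 1509, 787, 1653 and 1856 in control mice 1 to 4. Knockout mouse 3 was far above all others, control mouse 2 far below, and knockout mouse 1 lay between control mice 3 and 4. The means were 2484 ± 982 (SD, n = 4) and 1452 ± 465 (SD, n = 4), a ratio of 1.71. By deposited counts, collagen transcripts took 0.921%, 1.13%, 2.16% and 1.29% of the library in knockout mice and 0.837%, 0.429%, 0.910% and 1.03% in control mice. With each library's smooth trend over transcript length and GC content removed, the sums in knockout mice were 1416, 1815, 3123 and 1832 and those in control mice 1326, 1881, 1820 and 1638. On that scale control mouse 2 no longer had the lowest sum, knockout mouse 3 still had the highest, and the ratio of means was 1.23.

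**Figure D1:**
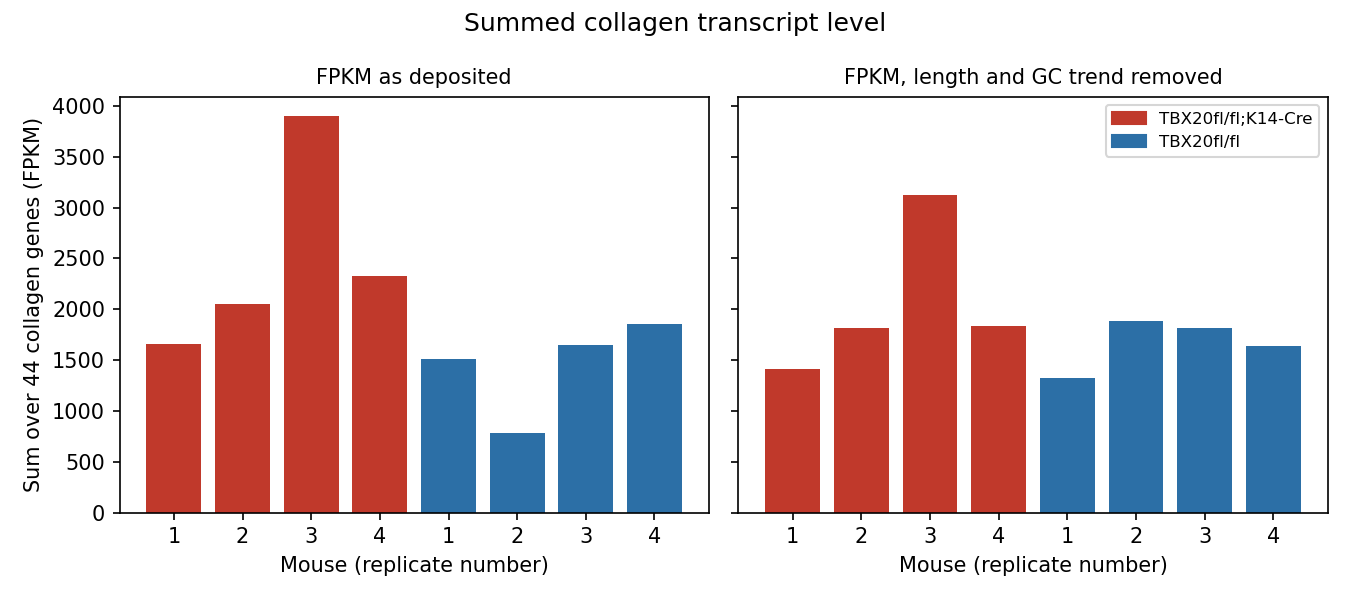
Bars give the FPKM summed over 44 collagen genes in each mouse (red, TBX20fl/fl;K14-Cre; blue, TBX20fl/fl; replicate numbers on the horizontal axis), as deposited (left) and with each library's trend over transcript length and GC content removed (right). On the left, control mouse 2 has the lowest bar at 787 and knockout mouse 3 the highest at 3898; on the right, control mouse 2 stands at 1881.

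Gene by gene, no collagen passed the test between genotypes. Of 43 collagen genes tested with edgeR (Col10a1, with 4 counts in all, was not), 0 had an adjusted p under 0.05, as did 0% of the 17124 genes tested, and the smallest adjusted p was 0.498. At an unadjusted p under 0.05, 12 collagen genes were higher in knockout skin, against 2.45% of all genes, and 0 were lower, against 5.91%. DESeq2 called 10 genes at an adjusted p under 0.05 but no collagen, with 16 collagens and 3.12% of all genes higher at an unadjusted p under 0.05, and limma on log2(FPKM + 1) called no gene, with 14 collagens and 3.16% of all genes higher at an unadjusted p under 0.05. The log2 fold change (knockout over control) was above 0 for 42 of the 43 genes, with a median of 0.53, beside 0.03 over all genes tested. Col9a1, at -0.21, was the exception.

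These numbers moved with the treatment of control mouse 2 and with the correction for length and GC content. Without control mouse 2, 14 collagens were higher at an unadjusted p under 0.05, against 3.19% of all genes, and the median was 0.36. With all 8 mice and an offset for length and GC content, an alternative chosen after the data were seen, 3 were higher (Col6a6, Col11a1 and Col6a2), against 2.85% of all genes, 26 of the 43 had a log2 fold change above 0, and the median was 0.04. The offset for length alone left 8 higher, against 3.14% of all genes, and a median of 0.25. Without knockout mouse 3, 4 remained higher at an unadjusted p under 0.05 (Col11a1, Col14a1, Col6a6 and Col6a3), against 1.62% of all genes, with a median of 0.47. With the replicate number as a block, 13 were higher, against 3.52% of all genes, and none had an adjusted p under 0.05.

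**Figure D2:**
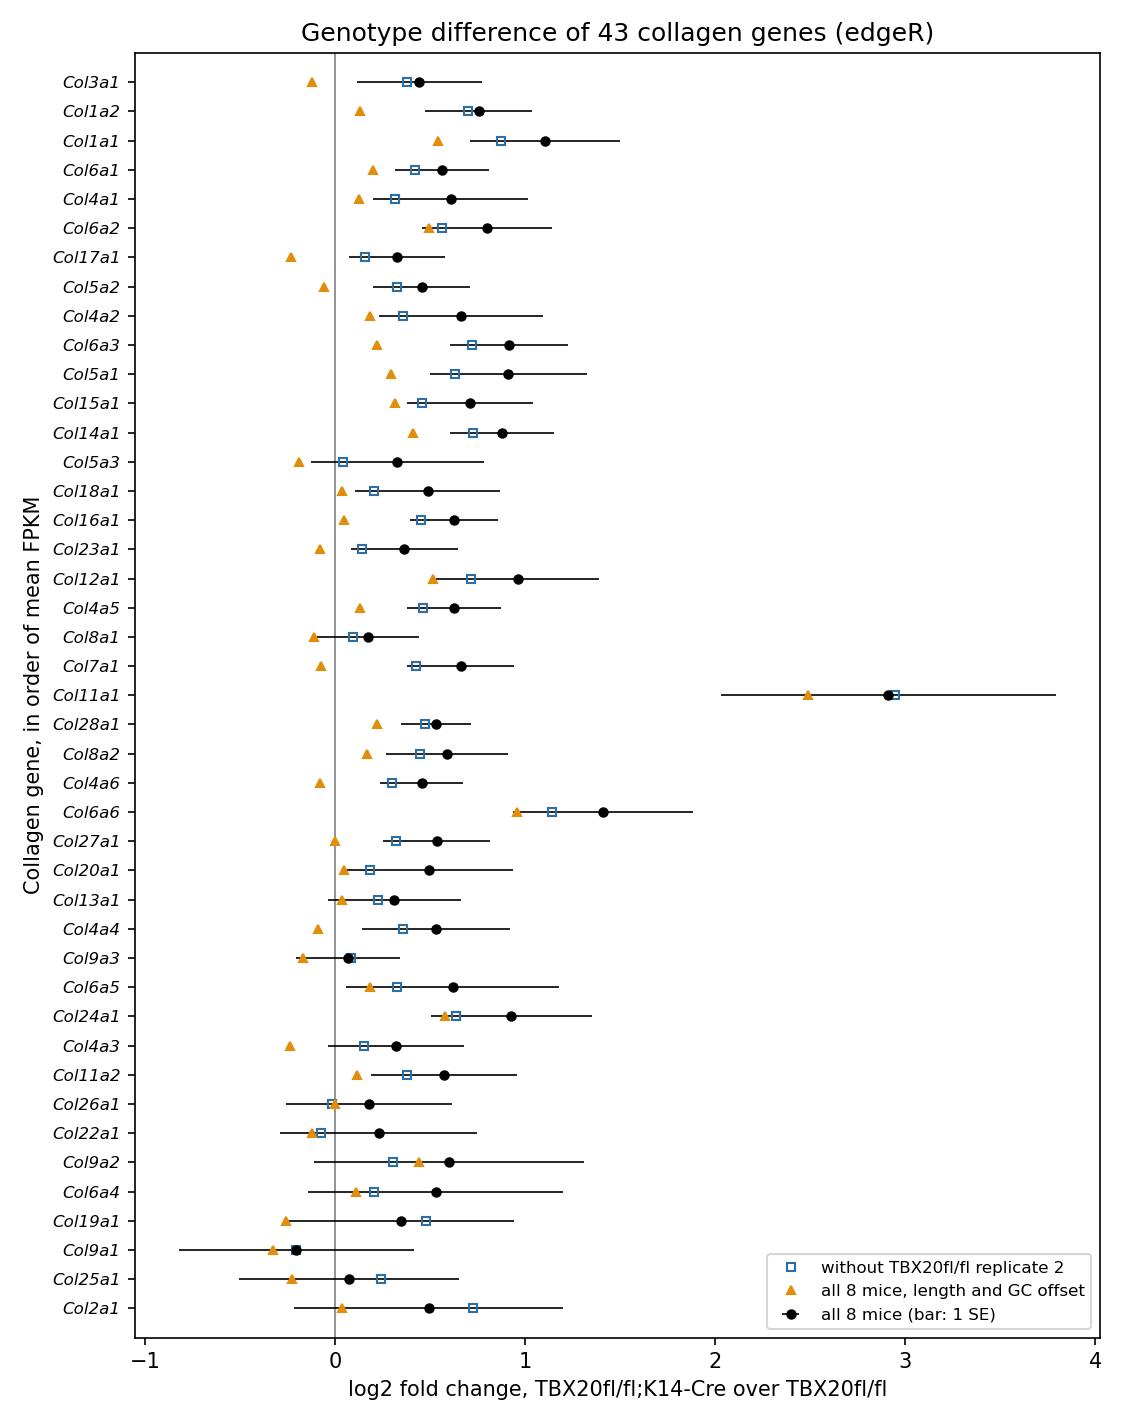
Each row is 1 of 43 collagen genes, ordered by mean FPKM, and the horizontal axis gives the edgeR log2 fold change of TBX20fl/fl;K14-Cre over TBX20fl/fl skin (black, all 8 mice with 1 SE; blue squares, without TBX20fl/fl replicate 2; orange triangles, all 8 mice with an offset for length and GC content). Black points lie right of 0 except that of Col9a1, most orange triangles lie closer to 0 than the black points, and Col11a1 stands farthest right at 2.91.

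Transcripts of collagen genes are long and rich in G and C. Among the 37 genes averaging 0.1 FPKM or more, the median effective length was 6051 bases and the median GC content 56.1%, beside 2839 bases and 50.2% over the 13288 genes averaging 50 counts or more. In control mouse 2, the log2 ratio of FPKM to the median of the other 3 controls had a median of -1.47 over these 37 genes, beside -0.53 over those 13288 genes, which were chosen by another filter. Across the 37 genes, which share 1 library and are not independent replicates, the ratio correlated with length at a Spearman rho of -0.50 and with GC content at -0.25 (over the 13288 genes, -0.78 and -0.21). The ratio was -2.54 for Col4a2 and -2.36 for Col4a1 but -0.85 for Col3a1 and -0.77 for Col1a2. Col11a1, at 0.28, was the only one of the 37 above 0, and lay between control mice 1 and 3 in level.

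**Figure D3:**
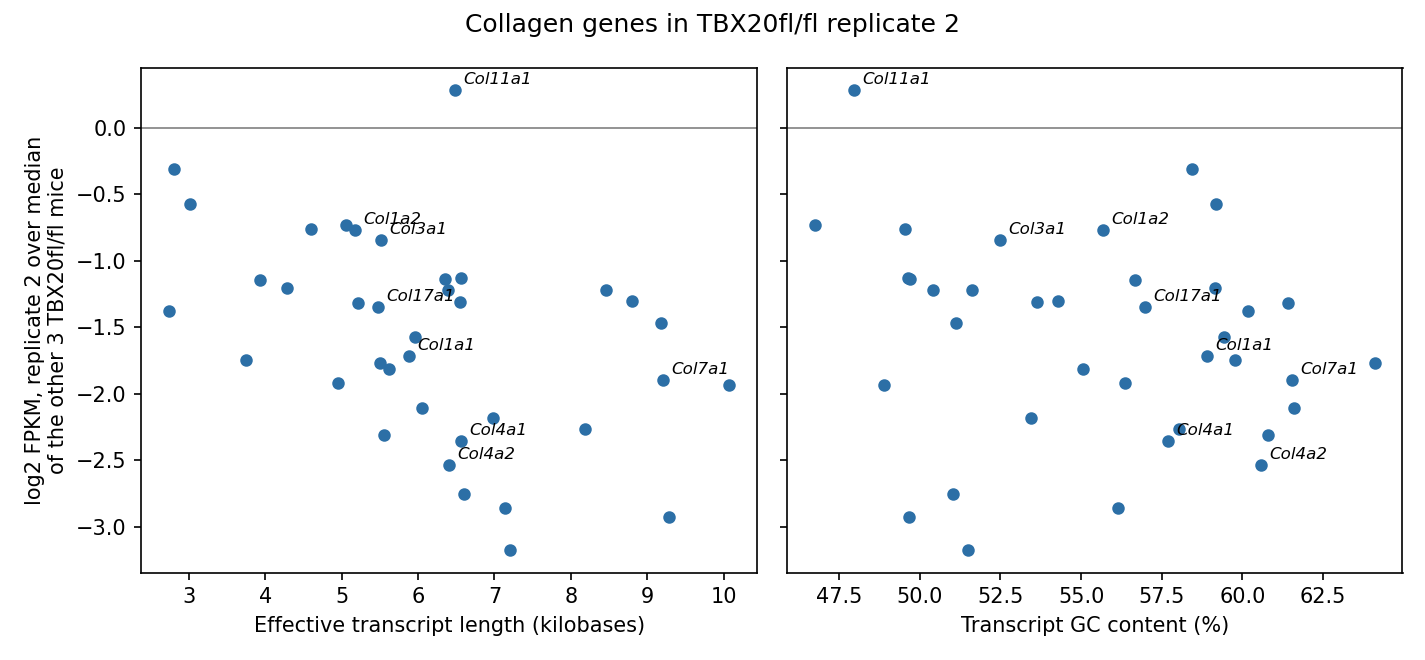
Each point is a collagen gene averaging 0.1 FPKM or more; the vertical axis is the log2 ratio of its FPKM in TBX20fl/fl replicate 2 to the median of the other 3 TBX20fl/fl mice, and the horizontal axes are effective transcript length in kilobases (left) and transcript GC content in percent (right). All points but Col11a1 lie below 0, and the longer transcripts reach lower values.

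Among the fibrillar collagens, all 11 had a log2 fold change above 0. The median was 0.57, became 0.63 without control mouse 2 and 0.12 with the length and GC offset. Col1a1 (gene 12842, chr11:94936224-94953042, GRCm38), which encodes the chain present in pairs in type I collagen, had an FPKM of 225, 365, 661 and 343 in knockout mice and 199, 60.7, 182 and 251 in control mice. Knockout mouse 1 lay below control mouse 4, so the groups overlapped. Its log2 fold change was 1.10 ± 0.39 (SE), with an unadjusted p of 0.020 and an adjusted p of 0.498 by edgeR. Without control mouse 2 the log2 fold change was 0.87, and with the length and GC offset 0.54.

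Its partner chain Col1a2 (gene 12843, chr6:4505618-4541543) was at 344, 499, 886 and 498 FPKM in knockout mice and 296, 201, 357 and 342 in control mice. Knockout mice 2, 3 and 4 lay above every control and knockout mouse 1 fell inside the control range. The log2 fold change of 0.75 ± 0.28 (SE) became 0.70 without control mouse 2, 0.44 without knockout mouse 3 and 0.13 with the length and GC offset. Col3a1 (gene 12825, chr1:45311538-45349706), whose product forms thin fibrils together with type I collagen, was the most abundant collagen at 594, 516, 1459.6 and 767 FPKM in knockout mice and 525, 365, 684 and 655 in control mice. Its groups overlapped broadly. Each knockout mouse was above the control mouse of its own replicate number, as for 22.2% of all genes. With the length and GC trend removed this held at 3 of the 4 numbers. The log2 fold change of 0.44 ± 0.33 (SE) was 0.03 without knockout mouse 3. With the length and GC offset the direction turned, to -0.12.

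The 3 genes differ in base composition although each encodes an almost equally long helix. Their coding sequences hold 63.0% (Col1a1), 59.5% (Col1a2) and 56.9% (Col3a1) G and C, and the log2 ratios of FPKM in control mouse 2 to the median of the other controls were -1.71, -0.77 and -0.85. The longest unbroken run of Gly-X-Y triplets is 338 triplets in Col1a1, 339 in Col1a2 and 344 in Col3a1, against 40 in Col4a1, 75 in Col7a1 and 56 in Col17a1, whose helices are interrupted. To show the repeat and its base composition, the central 90 coding bases of that run are printed here from GENCODE M21 transcripts, spliced across exons, with the glycine codon that opens each triplet in capitals. They come from exons 30 to 31 of Col1a1 (GRCm38 chr11:94945395-94945571, plus strand), exons 30 to 31 of Col1a2 (chr6:4525909-4527126, plus strand), exons 29 to 30 of Col3a1 (chr1:45336678-45337303, plus strand) and exons 4 to 6 of Col4a1 (chr8:11245773-11246880, minus strand).
Col1a1: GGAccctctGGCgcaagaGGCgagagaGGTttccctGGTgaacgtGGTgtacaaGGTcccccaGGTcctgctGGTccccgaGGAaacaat
Col1a2: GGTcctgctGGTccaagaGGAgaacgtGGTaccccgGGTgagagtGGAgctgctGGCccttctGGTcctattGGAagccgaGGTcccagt
Col3a1: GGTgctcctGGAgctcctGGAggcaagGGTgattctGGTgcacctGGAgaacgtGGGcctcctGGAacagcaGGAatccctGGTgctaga
Col4a1: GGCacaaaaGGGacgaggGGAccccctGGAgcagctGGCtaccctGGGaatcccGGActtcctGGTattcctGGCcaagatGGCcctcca
All 10 codons of each window that stand in capitals begin with GG, and 2, 1, 1 and 6 of them end in G or C in Col1a1, Col1a2, Col3a1 and Col4a1. Across the 16 collagen genes averaging 10 FPKM or more, the log2 ratio in control mouse 2 correlated with coding GC content at a Spearman rho of -0.62 and with effective length at -0.22, as a description over genes of 1 library.

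Col5a2 (gene 12832), a chain of type V collagen, which is incorporated into type I fibrils and limits their diameter, was at 39.2, 45.4, 79.8 and 53.3 FPKM in knockout mice and 35.6, 19.7, 43.2 and 47.4 in control mice. Only knockout mice 3 and 4 lay above every control, and the log2 fold change of 0.45 ± 0.26 (SE) became 0.21 without knockout mouse 3 and -0.06 with the length and GC offset. Col11a1 (gene 12814, chr3:114030479-114220756), a minor fibrillar chain best known from cartilage, had the largest log2 fold change of the 43 genes at 2.91 ± 0.88 (SE). Its FPKM was 0.70, 12.1, 2.18 and 0.97 in knockout mice and 0.42, 0.51, 0.68 and 0.32 in control mice, so that in FPKM all 4 knockout mice lay above all 4 controls, though knockout mouse 1 and control mouse 3 were close, with 77 and 78 counts. With the length and GC trend removed, knockout mouse 1 lay below control mice 2 and 3. Knockout mouse 2 set most of the size, and without it the log2 fold change was 1.27 ± 0.43 (SE). That mouse also held far more hair follicle transcript: the summed FPKM of 6 hair follicle markers was 1315 in it, against 27.4 to 175 in the other knockout mice and 11 to 72.7 in controls. The 6 bone and tendon markers summed to 74.8 FPKM in it, against 25.7 to 29.0 in the other knockout mice and 19.5 to 57.4 in controls. Of these, Tnmd was highest in it at 70.4, as was Sp7 at 0.95, against 0 to 0.19 elsewhere. Scx, at 3.37, was higher in control mouse 3 at 3.58, Dmp1 was at 0.11, and Bglap and Ibsp had means below 0.1. The cartilage marker Acan was at 1.26 in knockout mouse 2 and at 0 to 0.13 elsewhere, whereas the sum of the cartilage list in that mouse, 3.09, lay within the range of the others. The part of these cell types in the Col11a1 level was not tested.

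The fibril-associated collagens bind to the surface of fibrils. Of the 9, 8 had a log2 fold change above 0, with a median of 0.49 that became 0.04 with the length and GC offset. Col14a1 (gene 12818, chr15:55307644-55520803), the most abundant of them, was at 16.2, 19.5, 34.2 and 28.9 FPKM in knockout mice and 13.6, 6.21, 12.6 and 17.1 in control mice. Knockout mouse 1 fell below control mouse 4 and the other 3 lay above every control. Its log2 fold change was 0.88 ± 0.27 (SE), 0.72 without control mouse 2 and 0.41 with the length and GC offset. Col16a1 (gene 107581, chr4:130047817-130099277) was at 12.8, 18.5, 19.5 and 18.2 FPKM in knockout mice and 11.8, 4.72, 11.6 and 13.3 in control mice, with the same overlap between knockout mouse 1 and control mouse 4. Its log2 fold change of 0.62 ± 0.23 (SE) became 0.45 without control mouse 2 and 0.045 with the length and GC offset.

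The type VI collagens assemble from Col6a1, Col6a2 and a variable chain. All 6 genes had a log2 fold change above 0, 4 of them at an unadjusted p under 0.05, against 2.45% of all genes. The median of 0.71 became 0.21 with the length and GC offset, with 2 genes still higher at an unadjusted p under 0.05, against 2.85% of all genes. Col6a1 (gene 12833, chr10:76708792-76726044) was at 69.8, 118, 138 and 110.4 FPKM in knockout mice and 70.7, 35.0, 77.3 and 88.5 in control mice. Col6a2 (gene 12834, chr10:76595756-76623630) followed at 63.1, 104, 137 and 97.1 in knockout mice and 60.9, 18.2, 56.5 and 79.9 in control mice. For both, knockout mice 2, 3 and 4 lay above every control and knockout mouse 1 did not. The log2 fold change of Col6a1 was 0.56 ± 0.25 (SE), and 0.20 with the length and GC offset. Col6a2 was 1 of the 3 genes still at an unadjusted p under 0.05 with the length and GC offset, at a log2 fold change of 0.49 ± 0.20 (SE), but with control mouse 2 also left out its p was 0.097 (log2 fold change 0.41), and without an offset it was over 0.05 when knockout mouse 2, 3 or 4 or control mouse 1 or 3 was left out.

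Col6a3 (gene 12835, chr1:90766860-90844001), the long variable chain of the common type VI trimer, was at 23.6, 36.4, 47.6 and 42.4 FPKM in knockout mice and 19.8, 8.03, 17.5 and 29.5 in control mice, with a log2 fold change of 0.91 ± 0.31 (SE) that became 0.22 with the length and GC offset. Col6a6 (gene 245026), another variable chain, was at 0.65, 1.49, 2.60 and 1.99 FPKM in knockout mice and 0.68, 0.15, 0.60 and 0.94 in control mice. Again knockout mouse 1 lay inside the control range and the other 3 knockout mice above it. The log2 fold change of Col6a6 was 1.41 ± 0.47 (SE), 1.14 without control mouse 2, 1.13 without knockout mouse 3 and 0.96 with the length and GC offset, each with an unadjusted p under 0.05 and none with an adjusted p under 0.05 by edgeR.

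The 6 type IV genes of basement membranes had a median log2 fold change of 0.57 and, with the length and GC offset, of 0.02. Col4a1 (gene 12826, chr8:11198423-11312889) was at 72.4, 94.8, 128 and 105 FPKM in knockout mice and 74.5, 14.5, 57.8 and 102 in control mice. Col4a2 (gene 12827, chr8:11312805-11449287) was at 38.9, 51.4, 70.6 and 56.1 in knockout mice and 40.0, 6.90, 29.3 and 54.1 in control mice. Among the 16 abundant collagens these 2 had the lowest ratios in control mouse 2, and the groups overlapped, with control mouse 4 above knockout mice 1 and 2. The log2 fold changes of 0.61 ± 0.41 (SE) and 0.66 ± 0.43 (SE) became 0.31 and 0.36 without control mouse 2, and 0.13 and 0.18 with the length and GC offset. The summed FPKM of 4 endothelial markers, cells that also lay down type IV collagen, was 26.0 in control mouse 2 and 45.2 to 72.5 in the other 7 mice, and its part in these levels was not tested. Col4a5 (gene 12830), on chromosome X, was at 3.47, 2.33, 4.29 and 3.79 FPKM in knockout mice and 2.68, 1.01, 2.35 and 2.28 in control mice. Here knockout mouse 2 fell inside the control range, and the log2 fold change of 0.62 ± 0.25 (SE) became 0.13 with the length and GC offset.

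Type XVII and type VII collagen, at the dermal-epidermal junction, have basal keratinocytes as a main source. Col17a1 (gene 12821, chr19:47646341-47692042) was at 69.8, 52.0, 71.2 and 82.8 FPKM in knockout mice and 72.7, 24.0, 46.3 and 61.1 in control mice. The groups overlapped, and the log2 fold change was 0.32 ± 0.25 (SE). It was 0.155 without control mouse 2 and turned to -0.23 with the length and GC offset. Col7a1 (gene 12836, chr9:108953586-108984875) was at 2.76, 3.25, 3.71 and 3.19 FPKM in knockout mice and 2.46, 0.66, 1.97 and 2.57 in control mice. Every knockout mouse lay above every control, though knockout mouse 1 and control mouse 4 were close. Its log2 fold change was 0.66 ± 0.28 (SE) with all mice, 0.43 ± 0.13 (SE) without control mouse 2 and -0.07 ± 0.19 (SE) with the length and GC offset. Summed FPKM of 6 basal keratinocyte markers ranged from 2473 to 2824 in knockout mice and from 2363 to 3045 in control mice. Most of that sum was Krt14, Krt15 and Krt5. Of these, Krt5 was lowest in control mouse 2, at 389 FPKM against 586 to 803 in the other mice. Itga6, Itgb4 and Trp63 were also lowest in control mouse 2, at 9.53, 2.31 and 12.9 FPKM against 18.9 to 31.1, 6.47 to 13.9 and 21.5 to 37.1 in the other mice. The part of these markers in the levels of both collagens was not tested.

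Of the remaining classes, the leading members were Col15a1, Col8a1 and Col28a1. Col15a1 (gene 12819), a collagen of the basement membrane zone, was at 17.6, 28.0, 31.3 and 24.7 FPKM in knockout mice and 17.4, 4.61, 14.8 and 21.7 in control mice, with a log2 fold change of 0.71 ± 0.33 (SE) that became 0.46 without control mouse 2 and 0.32 with the length and GC offset. Col8a1 (gene 12837), a short-chain collagen of vessels, was at 2.89, 1.91, 3.20 and 3.73 in knockout mice and 1.81, 1.5, 2.49 and 3.71 in control mice, with broad overlap and a log2 fold change of 0.17 ± 0.27 (SE) that turned to -0.11 with the length and GC offset. Col28a1 (gene 213945), a collagen of peripheral nerve, was at 1.90, 2.15, 3.20 and 2.28 in knockout mice and 1.57, 0.95, 1.65 and 1.61 in control mice. All 4 knockout mice lay above all 4 controls, with a log2 fold change of 0.53 ± 0.18 (SE), 0.47 without control mouse 2 and 0.22 with the length and GC offset. Schwann cell markers summed to 42.8 to 85.6 FPKM in knockout mice and 40.9 to 63.4 in control mice.

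**Figure D4:**
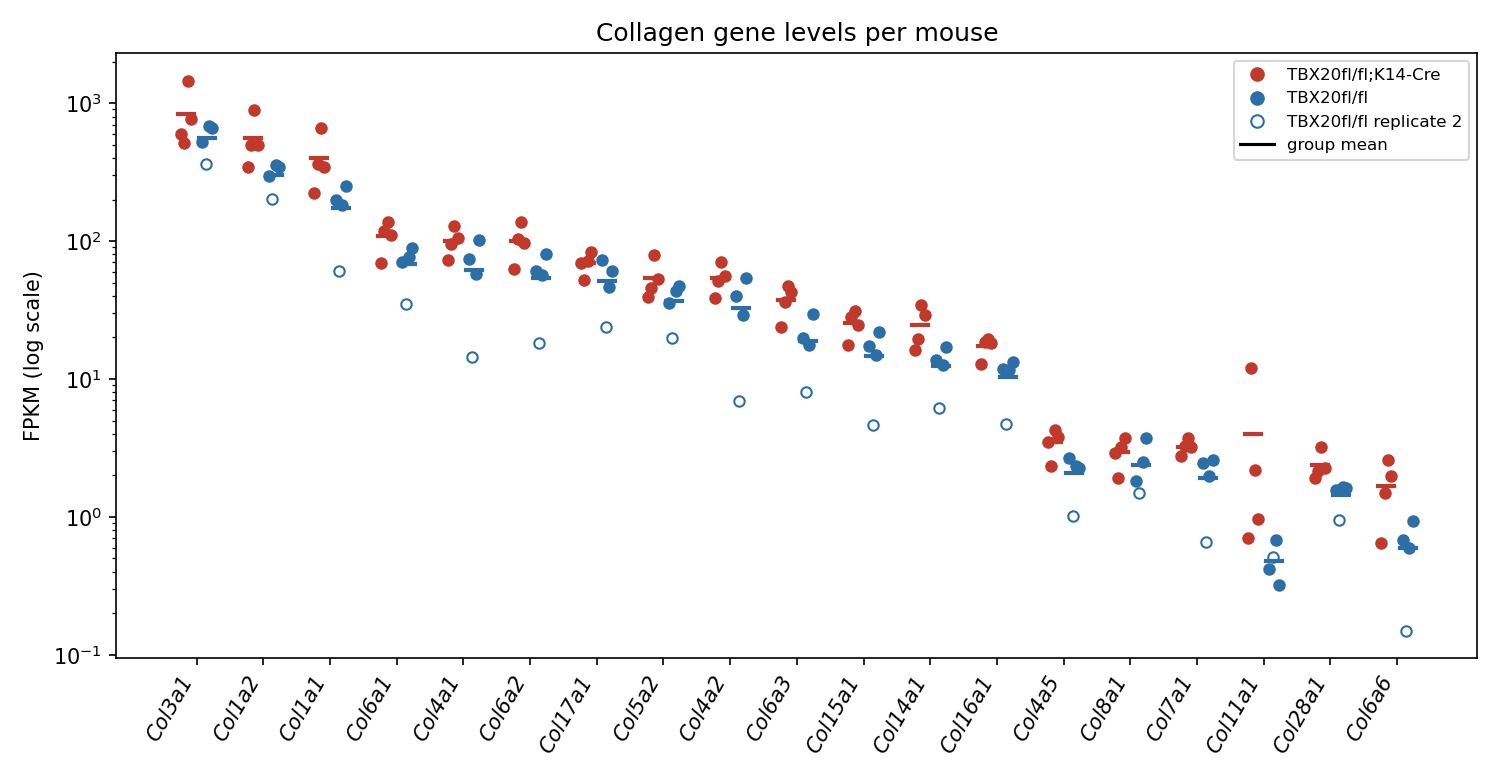
FPKM on a log scale of 19 collagen genes in each mouse (red, TBX20fl/fl;K14-Cre; blue, TBX20fl/fl; open circle, TBX20fl/fl replicate 2; short lines, group means), ordered by mean level from Col3a1 to Col6a6. The open circle is the lowest point for every gene shown except Col11a1, and the red points lie above all blue points only for Col7a1, Col11a1 and Col28a1.

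Counted over the 37 collagen genes averaging 0.1 FPKM or more, 4 had every knockout mouse above every control (Col7a1, Col11a1, Col28a1 and, named after its values were seen, Col24a1), against 5.45% of all genes. None had every knockout mouse below, against 1.92% of all genes. The two-sided exact permutation test gave each of the 4 a p of 0.0286, the smallest that 4 mice against 4 allow, and 0.388 after adjustment over all genes. Without control mouse 2 the count was again 4, against 5.65% of all genes, and with the length and GC trend removed it was 1, against 4.4%. It was 14 without knockout mouse 1, against 10.1% of all genes, and 14 without control mouse 4, against 12.3%. Between mice of the same replicate number, a comparison added after the data were seen, 20 of the 37 genes were higher in the knockout mouse at all 4 numbers, against 22.2% of all genes, and 10 with the length and GC trend removed, against 20.3%. Col1a1, Col1a2, Col3a1, Col14a1, Col16a1 and Col6a3 were among the 20. Col24a1, a minor fibrillar chain, was at 0.45, 0.59, 0.44 and 0.33 FPKM in knockout mice and 0.27, 0.04, 0.32 and 0.24 in control mice. Knockout mouse 3 had the highest value of the 8 mice for 23 of the 37 collagen genes, against 11.4% of all genes. The summed FPKM of 7 fibroblast markers, most of it Dpt, was 929 in that mouse, within the range of 835 to 1158 over the 8 mice. Members of that list differed in control mouse 2. Pdgfra, Fbln1 and Pi16 were lowest there, at 8.83, 8.25 and 37.9 FPKM, against 20.1 to 30.6, 19.6 to 34.5 and 55.6 to 109.8 in the other mice. Thy1 and Dpp4 were also lowest there, while Dpt and Mfap5 were highest, at 890 and 113. The 4 adipocyte markers summed to 922 in knockout mouse 3, the highest of the 8 mice, against 615 to 746 in the others. The part of both marker lists in the collagen levels was not tested.

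Ratios between chains do not depend on how a library is scaled. The Col1a1 to Col1a2 ratio of FPKM was 0.653, 0.731, 0.746 and 0.689 in knockout mice and 0.673, 0.303, 0.510 and 0.734 in control mice, so that control mice 1 and 4 lay within the knockout range and control mice 2 and 3 were lower. The Col3a1 to Col1a1 ratio ran the other way, at 1.42 to 2.64 in knockout mice and 2.63, 6.01, 3.75 and 2.61 in control mice. Col4a1 to Col4a2, whose genes lie head to head on chromosome 8, was the steadiest at 1.81 to 1.86 in knockout mice and 1.86 to 2.11 in control mice. Their RefSeq promoter windows (GRCm38.p6) overlap by 78 bases at chr8:11312777-11312854, with a GC content of 73.1%. None of the 6 ratios compared passed the two-sided exact permutation test, with p from 0.0571 for Col5a1 to Col5a2 to 0.229 for Col1a1 to Col1a2, and from 0.171 to 0.229 after adjustment over the 6. Control mouse 2 was the extreme control in every ratio.

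**Figure D5:**
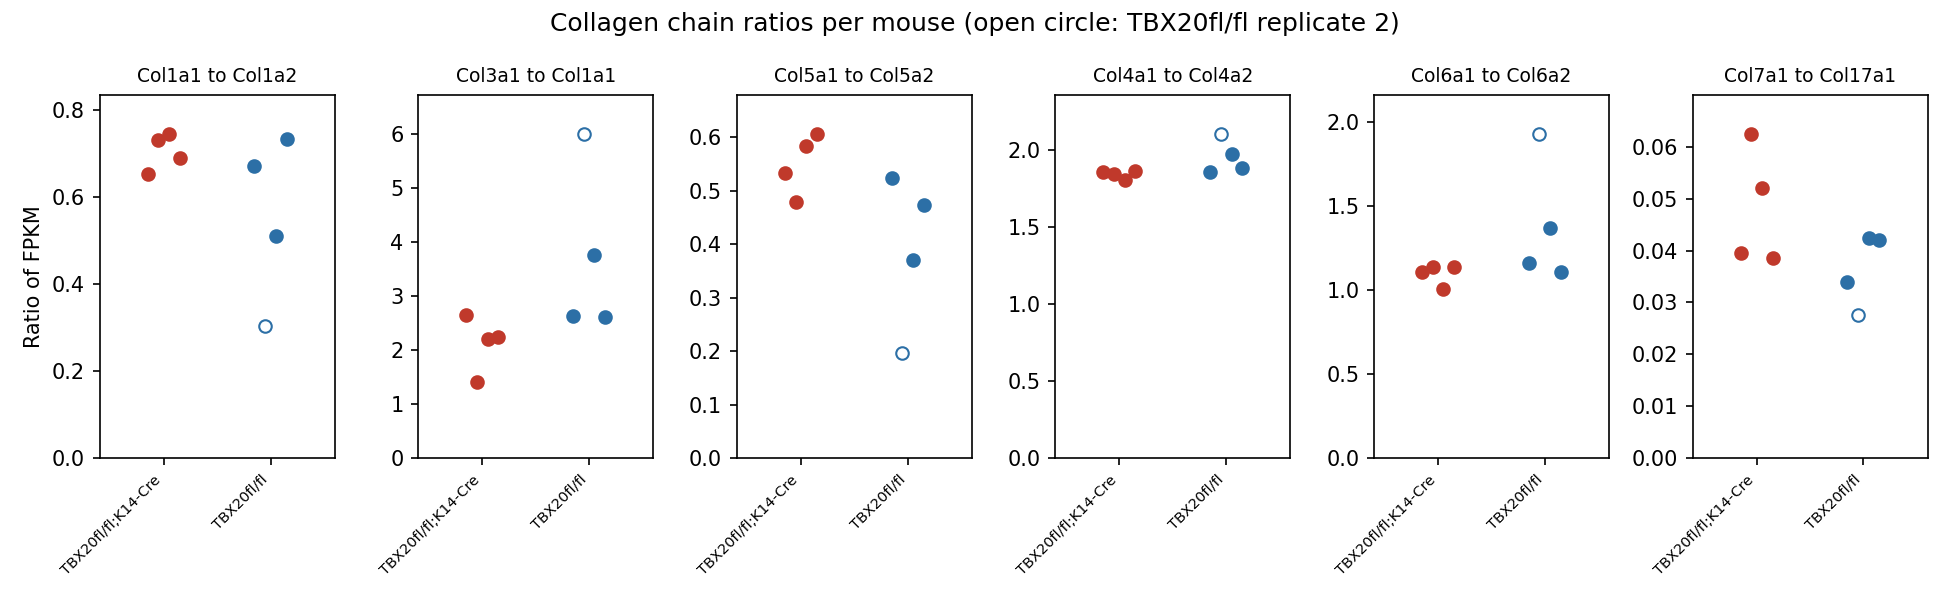
Each panel gives 1 ratio of FPKM between collagen chains in the 4 TBX20fl/fl;K14-Cre mice (red) and the 4 TBX20fl/fl mice (blue), with TBX20fl/fl replicate 2 as an open circle and the vertical axis starting at 0. The open circle is the control farthest from the knockout mice in all 6 panels, and Col4a1 to Col4a2 varies least, from 1.81 to 2.11.

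TBX20 is a T-box factor, and the core of the T-box element, AGGTGT on either strand, was sought in the RefSeq promoter windows (250 bases before to 50 after the start, GRCm38.p6). Windows of 35 collagen genes were at hand, of which 3 held the core (Col1a2, Col24a1 and Col6a4), or 8.57%, against 15.7% of 27025 genes. The longer AGGTGTGA, which contains the core, was in 0 of the 35 and in 1.48% of all genes. The Col1a2 window is shown because it is the only one of an abundant collagen with the core, here as the 250 bases before the start (chr6:4505368-4505617, plus strand) with the core in capitals at position -246.
Col1a2 promoter: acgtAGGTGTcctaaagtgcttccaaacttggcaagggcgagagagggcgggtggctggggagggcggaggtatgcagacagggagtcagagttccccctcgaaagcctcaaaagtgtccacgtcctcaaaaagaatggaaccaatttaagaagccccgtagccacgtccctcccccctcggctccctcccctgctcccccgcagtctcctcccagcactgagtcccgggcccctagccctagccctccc
A match to letters is a description of this window only.

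Genes that process, bind and degrade collagen were read from the same edgeR fit, and 0 of them had an adjusted p under 0.05. Among 22 procollagen-modifying enzymes and chaperones the median log2 fold change was 0.17 and none was at an unadjusted p under 0.05. Fkbp10, a collagen chaperone, was at 12 ± 2.11 FPKM (SD, n = 4) in knockout skin and 7.97 ± 2.87 (SD, n = 4) in control skin. The groups overlapped, with knockout mouse 1 at 9.21 and control mouse 4 at 11.6, and control mouse 2 was lowest at 4.64. Its log2 fold change of 0.46 became 0.30 with the length and GC offset. In the other direction, Tmem38b and Ppib were at -0.31 and -0.42, and at -0.08 and 0.07 with the offset. Among 13 procollagen proteinases and cross-linking enzymes 1 was higher at an unadjusted p under 0.05, against 2.45% of all genes. That gene, Adamts3, was at 0.06, 0.33, 0.16 and 0.12 FPKM in knockout mice and 0.07, 0.04, 0.06 and 0.10 in control mice. Knockout mouse 1 thus lay inside the control range. None of the 13 was higher at that threshold without control mouse 2 or with the length and GC offset, and the median of 0.34 became -0.0028 with the offset.

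The 9 small leucine-rich proteoglycans, proteins that bind to fibrils, had a median log2 fold change of -0.40, with 3 of 9 above 0. Decorin (Dcn) was at 2317, 2074, 2158 and 2596 FPKM in knockout mice and 2312, 4319, 3164 and 2339 in control mice, so that control mouse 2, the lowest for collagens, was the highest for this gene. Omd had its highest FPKM in the same mouse, at 21.3, against 7.20 to 16.5 in the others. With the length and GC offset the median of this list was 0.07. Biglycan (Bgn) was at 140.0, 240.2, 209 and 179 FPKM in knockout mice and 135, 80.2, 130 and 152 in control mice, and its log2 fold change of 0.49 was 0.47 with the offset.

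Of 10 collagen receptors and uptake genes, 2 were higher at an unadjusted p under 0.05, against 2.45% of all genes, and 1 was lower, against 5.91%. The higher ones were Itga11, a fibrillar collagen integrin chain, and Mrc2, an endocytic receptor. The lower one was Lair1, an inhibitory receptor of leukocytes. Lair1, at -0.76, was no longer at that threshold without control mouse 2 (-0.71) or with the length and GC offset (-0.60). With the offset 1 gene was higher, against 2.85% of all genes. The log2 fold change of Mrc2 went from 0.62 to 0.05, and the median of the list from 0.34 to 0.04. Of 14 partners at the dermal-epidermal junction, 2 were higher at that threshold (Frem2 and Nid1), against 2.45% of all genes. Without control mouse 2 there were 2 as well, against 3.19% of all genes. With the length and GC offset there was none, against 2.85%, the log2 fold change of Frem2 going from 0.66 to 0.04 and the median from 0.45 to -0.02. The 11 genes of the TGF-beta axis that were tested had a median of 0.22 with none at an unadjusted p under 0.05, and the median was 0.019 without control mouse 2 and turned to -0.10 with the length and GC offset.

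Among 7 collagen-degrading proteases, 2 were lower at an unadjusted p under 0.05, against 5.91% of all genes. Mmp13, an interstitial collagenase, was at 1.78, 2.20, 1.64 and 3.56 FPKM in knockout mice and 3.53, 4.53, 3.43 and 10.7 in control mice. Mmp8, the neutrophil collagenase, was at 1.06, 0.82, 0.95 and 2.01 in knockout mice and 1.88, 3.19, 1.47 and 4.71 in control mice. For both, knockout mouse 4 overlapped the controls. The log2 fold changes of -1.43 and -1.41 were -1.19 and -1.15 with the length and GC offset, and both had an adjusted p of 0.498 by edgeR. The summed FPKM of 4 neutrophil markers was 94.8 to 267 in knockout mice and 263 to 946 in control mice, and its part in these levels was not tested.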

How the data were processed

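The authors sequenced BNP-injected cheek skin of 8 mice with single-end 50-base reads. SOAPnuke removed poor reads (settings 15 for l, 0.2 for q and 0.05 for n) and HISAT was the aligner. The counting program is not given in the sources used here. Estimated counts (expected counts) were deposited without normalization. Of those above 0, 69.0% are not whole, and all were rounded before testing. The deposited FPKM values, made by the authors, were used for levels. The TPM values and the normalized signal (counts divided by size factors) deposited by the authors were not used, nor were 40 columns of group means. The log2 fold changes, p-values and q-values that the authors deposited for 17 comparisons, under names that refer to DESeq2, were not used either. Coordinates are from RefSeq on GRCm38.p6, which the deposited accessions match, because 3 members had scaffold coordinates in the file.

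A gene entered the test with 10 or more counts summed over the 8 mice. The test was edgeR 4.0.16 (quasi-likelihood, TMM, genotype as the only term) in R 4.3.3, with Benjamini-Hochberg adjustment over all 17124 genes. DESeq2 1.42.0 and limma 3.58.1 were alternatives. FPKM was compared by two-sided exact permutation over 70 assignments for genes with a mean of at least 0.1. Trends over length and GC content were splines fitted per library to log2 CPM of genes averaging 50 counts or more, and GC values were found for 18338 genes. At these depths 3 counts correspond to 0.151 to 0.187 CPM, which covers counting error only. Scripts were tested on simulated data.

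The members and lists were chosen with earlier results of these data known. Values per mouse are given for the 10 members with the highest mean FPKM, Col7a1, Col17a1, the highest member of each class, and the 12 members of smallest p among those at an unadjusted p under 0.05 or without overlap. From each pathway list, up to 2 genes in each direction were named. Replicate numbers come from the labels, which do not say what they share. Same-numbered mice deviated together (correlations of deviations from group means 0.160 to 0.405 over the 4 pairs, against -0.518 to 0.426, with a mean of -0.0887, over the 12 others), so a replicate block was an alternative. Nothing else in the labels ties mice to litters, and p-values measure the spread between these mice.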

Additional observations from a re-analysis of the deposited data

Results flagged for a closer look

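In 52 groups of 4 values examined, 2 held a mouse far from the other 3 of its group by Dixon's test, where chance at 1 in 20 gives 2.6. Col11a1 had an FPKM of 12.06 in knockout mouse 2, against 0.70 to 2.18 in the other knockout mice. Col28a1 had an FPKM of 0.95 in control mouse 2, against 1.57 to 1.65 in the other controls.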

How the results depend on the processing

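No setting gave a collagen gene or a collagen-handling gene an adjusted p under 0.05. DESeq2's Wald test called 10 of all genes. It left 11 handling genes higher at an unadjusted p under 0.05 (3.12% of all genes), against 6 by edgeR (2.45% of all genes). Limma left 2 lower with either pseudocount, against 4 by edgeR (5.91% of all genes). Leaving out 1 mouse at a time gave 4 to 14 collagens higher. There were 4 without knockout mouse 3 (1.62% of all genes) and 14 without control mouse 2 (3.19% of all genes). These fits gave 0 to 11 handling genes higher and 2 to 7 lower. Collagens without overlap in FPKM were 4 to 14, with 14 without knockout mouse 1 (10.1% of all genes) or control mouse 4 (12.3% of all genes). The replicate block changed no call at the adjusted threshold. At the unadjusted one it left 13 collagens higher (3.52% of all genes), without Col6a1 and with Col5a1 and Col4a6 added, and the median was 0.57. The block with the length offset left 10 handling genes higher. With the length offset and control mouse 2 left out, 1 handling gene was higher and 2 lower. The length and GC offset, added after the data were seen, left 3 collagens higher (2.85% of all genes) with a median of 0.045. It left 3 handling genes higher and 2 lower. With the block added to the offset, 3 collagens were higher and the median was 0.050. With the offset and control mouse 2 left out, 3 collagens were higher (Col14a1 in place of Col6a2) and the median was 0.13, with 2 handling genes higher and 2 lower. Without overlap in FPKM, 2 collagens remained with the length trend removed and 1 with length and GC removed (4.4% of all genes). Where no share over all genes stands beside a count in this section, none was computed. Before adjustment over the 6 chain ratios, an exact p of 0.0286 was reached by Col4a1 to Col4a2 with the length trend removed (log2 difference -0.093; with length and GC removed -0.061, p = 0.0857), and without control mouse 1 (-0.11, with leave-out values from -0.11 to -0.047); likewise Col5a1 to Col5a2 without control mouse 1 (0.75, range 0.28 to 0.75) and Col6a1 to Col6a2 without control mouse 4 (-0.41, range -0.41 to -0.14).

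Among the 19 genes given by mouse, the log2 fold change turned sign for Col8a1 with the length offset (-0.14; with the block -0.11; without control mouse 2 -0.0084) and for Col3a1 with the block and length offset (-0.012). Over all 43, 37 were above 0 with the length offset and 26 with the length and GC offset. With the latter it turned, among the 19, for Col3a1 (-0.12), Col17a1 (-0.23), Col5a2 (-0.060), Col8a1 (-0.11) and Col7a1 (-0.074), with the block added at -0.13, -0.21, -0.055, -0.086 and -0.070, and without control mouse 2 for Col17a1 (-0.049) and Col8a1 (-0.0013). The causes were not tested. The size of difference that 4 mice a group could detect was not estimated.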
